A study of Mus musculus with 4 samples.

Results

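The mitochondrial carrier genes described here are the genes whose GENCODE vM21 symbol is Slc25a followed by a number, 47 of the 55487 genes in the deposited tables. They were read in Lgr5-positive stem cells sorted from the crypts of the mouse large and small intestine. Large-intestinal stem cells (LISC, 2 libraries) came from cecum to rectum and were sorted for the Lgr5-EGFP reporter. Small-intestinal stem cells (SISC, 2 libraries) came from segments near the pylorus and near the cecum and were sorted for the reporter and for absence of the surface protein CD24. No CD24 gate is named for LISC. All animals carried Lgr5-EGFP-IRES-creERT2, an allele which places a green fluorescent protein and an inducible Cre recombinase under control of the stem cell gene Lgr5, were aged 6 to 12 weeks and received no treatment. The labels do not say whether the replicates came from separate or pooled animals, so each p-value reflects library-to-library spread alone, which may be technical.

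Slc25 proteins form the largest family of solute carriers and sit almost entirely in the mitochondrial inner membrane, a barrier to charged metabolites. Each is built from repeats of a pair of membrane-spanning helices and moves nucleotides, phosphate, carboxylates, amino acids, cofactors or metal ions between cytosol and matrix, often as an exchange. In the intestine such carriers connect the matrix steps of the urea cycle, fatty acid oxidation, citrate export and heme synthesis to their cytosolic steps. Some members still have no firmly assigned substrate in mammals.

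Total expected counts ran from 12795400 to 24142200 in LISC and from 16490500 to 27227700 in SISC. The upper limit set by a zero count, 3 counts, came to 0.110 to 0.234 CPM of these totals, before any scaling. Nuclear rRNA took 28.5% and 24.1% of counts in LISC and SISC replicate 1, against 0.0997% and 0.0917% in LISC and SISC replicate 2, so the replicate number also divided the libraries. For that reason levels are compared between libraries as CPM, counts relative to the library total after scaling with TMM factors, and between genes as TPM, which is per length. Olfm4, a stem cell marker of the small intestine, was read at 91.5 and 108 CPM in LISC and 7765 and 12472 CPM in SISC, and Lgr5 at 147 and 89.7 CPM in LISC and 114 and 173 CPM in SISC. Of the other stem cell markers, Smoc2 was read at 148 and 106 CPM in LISC and 278 and 389 CPM in SISC, and Axin2 at 123 and 96.7 CPM in LISC and 290 and 295 CPM in SISC. Both were lower in LISC by DESeq2 (adjusted p = 0.00804 and 0.0011) and missed edgeR's threshold. Ascl2 was read at 54.5 and 43.7 CPM in LISC and 52.7 and 73.6 CPM in SISC, with overlapping groups. Markers of most other epithelial cells differed between the groups. The 5 colonocyte markers summed to 275 and 1175 CPM in LISC and 25.2 and 25.8 CPM in SISC, with Car1, Aqp8 and Saa1 at 0 counts in SISC, and 4 of the 4 tested were higher in both LISC libraries. The 6 goblet markers summed to 3311 and 5519 CPM in LISC and 2017 and 439.5 CPM in SISC, with 4 of 6 higher in both LISC libraries. The 3 tuft markers summed to 54.6 and 84.0 CPM in LISC and 14.8 and 3.56 CPM in SISC, and all 3 were higher in both LISC libraries. The 4 Paneth markers summed to 44.2 and 20.8 CPM in LISC and 6216 and 891 CPM in SISC, and the 6 small-intestinal enterocyte markers to 54.6 and 138 CPM in LISC and 189 and 205 CPM in SISC; all 4 and 5 of the 6 were lower in both LISC libraries. The 4 enteroendocrine markers summed to 43.3 and 41.1 CPM in LISC and 153 and 25.9 CPM in SISC. Of these only Cck was lower in both LISC libraries, and the groups overlapped in the others. None of the epithelial markers listed here was at 0 in LISC except Apoa4. Of 5 immune markers, Cd74, which belongs to antigen presentation, was read at 81.2 and 98.4 CPM in LISC and 483 and 619.5 CPM in SISC (edgeR adjusted p = 0.0444). Ptprc, the pan-leukocyte marker, was read at 1.30 and 4.78 CPM in LISC and 0.364 and 0.469 CPM in SISC, and the other 3 stayed below 1 CPM. Each of 5 stromal and 3 endothelial markers stayed below 1 CPM in all libraries. The part of these cells in the differences below was not tested.

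LISC were set against SISC to ask which carrier genes distinguish stem cells from either intestine. Slc25a35 and Slc25a34, a pair of related carriers with no firmly assigned substrate, were 8.14-fold and 14.4-fold higher in LISC. Slc25a15, the ornithine carrier of the urea cycle, was 3.26-fold lower in LISC. These were the 3 members called by edgeR's quasi-likelihood test at an adjusted p below 0.05, among 40 members that passed the filter on low counts. Of the 14165 genes tested in the same fit, 2.2% were called, 1.45% higher and 0.741% lower in LISC. No gene with a fold below 3.07 was called by edgeR in this fit. DESeq2 called 6 of 42 members, the same 3 and Slc25a24, Slc25a48 and Slc25a25, against 6.92% of all genes it tested (4.61% higher and 2.31% lower in LISC). At an unadjusted edgeR p below 0.05 there were 10 members, 6 higher and 4 lower in LISC, against 13.4% of all genes tested (8.73% higher and 4.67% lower). In 17 of the 40 members both LISC libraries lay above both SISC libraries, against 21.9% of all genes, and in 9 both lay below, against 18.4%. The median log2 difference of the tested members was 0.19, against −0.02 over all genes tested. Without SISC replicate 2 these medians were 0.059 and 0.050, so the gap rests on that library. With limma on log2(TPM + 1) and log2(TPM + 0.1) the medians were 0.084 and 0.088 over the members and −0.053 and −0.064 over all genes. In 32 of the 40 the fitted log2 difference was smaller than 1 in size. In bulk libraries, fewer cells that express a gene and less of its RNA per cell cannot be told apart.

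**Figure D1:**
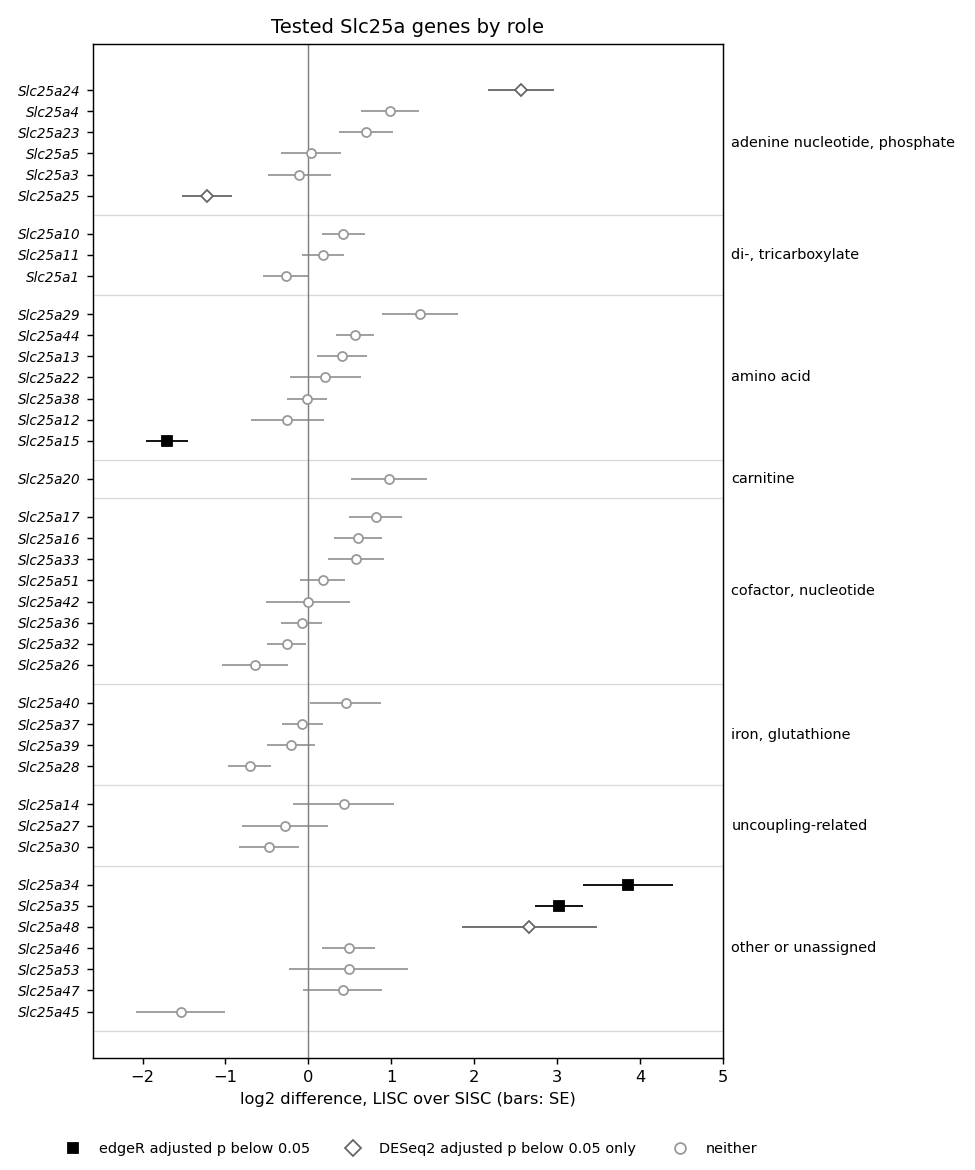
Log2 difference of LISC over SISC (x axis) with its standard error for 39 of the 40 tested Slc25a genes, grouped by the role of the carrier. Filled squares passed edgeR's test, diamonds passed DESeq2's only and circles passed neither; Slc25a34 and Slc25a35 lie farthest to the right, and Slc25a15 farthest to the left.

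Slc25a35 (ENSMUSG00000018740; chromosome 11, 68968131 to 68974365, plus strand, GRCm38) was read at 53.6 and 62.0 CPM in LISC replicates 1 and 2 and at 8.29 and 5.97 CPM in SISC replicates 1 and 2. Both LISC libraries were far above both SISC libraries, and replicates of a group lay close together. The log2 difference was 3.02 ± 0.29 (SE; edgeR adjusted p = 0.0227), and 2.69 and 3.38 within replicate numbers 1 and 2, each a comparison of single libraries and untested. It was the member with the smallest p, 94th among all genes tested, and it was called under each of the 12 alternatives run, with log2 differences of 2.67 to 3.27. The annotated exons of Slc25a35 share 1151 of 3677 bases with those of Rangrf on the opposite strand. How strand was handled in counting is not stated. The expected counts of Slc25a35 were whole numbers in every library, 578 and 1804 in LISC and 114 and 191 in SISC. They thus showed no sign of reads split with another gene. Rangrf, which encodes a regulator of Ran, was read at 40.8 and 54.7 CPM in LISC and 44.1 and 79.0 CPM in SISC, with a log2 difference of −0.37 (edgeR adjusted p = 0.902).

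Slc25a34 (ENSMUSG00000040740; chromosome 4, 141618824 to 141623821, minus strand) was read at a lower level, 5.37 and 7.87 CPM in LISC and 0.437 and 0.469 CPM in SISC. The LISC libraries held 58 and 229 counts and the SISC libraries 6 and 15, so the fold rests on few SISC reads. The log2 difference was 3.85 ± 0.54 (edgeR adjusted p = 0.0451), and 3.62 and 4.07 within replicate numbers 1 and 2. Its call was lost when any of the 4 libraries was left out: the log2 difference was 4.10 and 3.56 without LISC replicates 1 and 2 and 3.80 and 3.88 without SISC replicates 1 and 2 (edgeR adjusted p from 0.0555 to 0.236). It was also lost with limma on log2(TPM + 1) and log2(TPM + 0.1), at 1.56 and 3.18.

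The stretches upstream of the RefSeq starts of Slc25a34, Slc25a15 and Slc25a24 are shown because these genes had large differences in opposite directions between the intestines. Slc25a35, the member with the smallest p, had no entry among the RefSeq starts used, so its stretch is not shown. Each line gives the 250 bases before the start (RefSeq, GRCm38.p6; 36 of the 47 members are in that table), read 5′ to 3′ on the gene's strand. Capitals mark matches, on either strand, to any of the motifs searched: the motif of CDX factors was TTTATNG, the motif of GATA factors AGATAA, the nuclear receptor half-site AGGTCA, the binding box of Sp1-type factors (GC box) GGGCGG, and the box of NF-Y was CCAAT.
Slc25a34, chr4:141623835-141624084, minus strand: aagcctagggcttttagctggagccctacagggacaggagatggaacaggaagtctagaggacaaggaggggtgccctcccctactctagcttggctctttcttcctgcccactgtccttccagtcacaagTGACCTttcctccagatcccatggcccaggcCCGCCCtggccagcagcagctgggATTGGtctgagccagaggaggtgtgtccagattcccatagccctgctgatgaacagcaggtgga
Slc25a15, chr8:22398622-22398871, minus strand: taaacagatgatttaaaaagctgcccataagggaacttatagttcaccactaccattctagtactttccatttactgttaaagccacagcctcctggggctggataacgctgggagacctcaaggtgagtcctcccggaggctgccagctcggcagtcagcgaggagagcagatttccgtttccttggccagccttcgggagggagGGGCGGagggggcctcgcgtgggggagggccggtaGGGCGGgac
Slc25a24, chr3:109122899-109123148, plus strand: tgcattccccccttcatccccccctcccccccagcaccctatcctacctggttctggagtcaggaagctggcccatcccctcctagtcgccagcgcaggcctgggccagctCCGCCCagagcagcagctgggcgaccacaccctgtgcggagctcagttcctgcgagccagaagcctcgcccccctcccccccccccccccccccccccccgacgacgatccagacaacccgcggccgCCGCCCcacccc
The Slc25a34 stretch held 1 nuclear receptor half-site, 1 GC box and 1 NF-Y box at 119, 88 and 64 bases before the start. The Slc25a15 and Slc25a24 stretches held 2 GC boxes each and no other match, and no matches overlapped. Among 32817 windows of the same length in the table, 32.7% held a GC box, 33.8% an NF-Y box, 14.0% the nuclear receptor half-site, 9.81% the CDX motif and 9.99% the GATA motif. The G and C content was 58.4%, 57.6% and 72.8% for Slc25a34, Slc25a15 and Slc25a24, against a median of 52.4% over these windows.

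Among the other members with other or unassigned roles, Slc25a48, a carrier linked to choline import, was read at 9.82 and 4.30 CPM in LISC and 1.75 and 0.531 CPM in SISC. Both LISC libraries were higher, but replicates differed by more than 2-fold in each group, and the log2 difference of 2.66 ± 0.82 missed edgeR's threshold (adjusted p = 0.235) and passed DESeq2's (adjusted p = 0.0230). Slc25a45, an orphan carrier, was read at 2.04 and 1.31 CPM in LISC and 5.68 and 3.998 CPM in SISC, with a log2 difference of −1.54 ± 0.53 (edgeR adjusted p = 0.299). Slc25a46, which sits in the outer membrane and bears on mitochondrial shape, Slc25a47 and Slc25a53 had log2 differences between 0.41 and 0.49 and passed neither test. Of the 7 tested members of this group edgeR called 2, both higher in LISC, against 1.45% of all genes tested. Both LISC libraries lay above SISC in 5, against 21.9% of all genes.

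**Figure D2:**
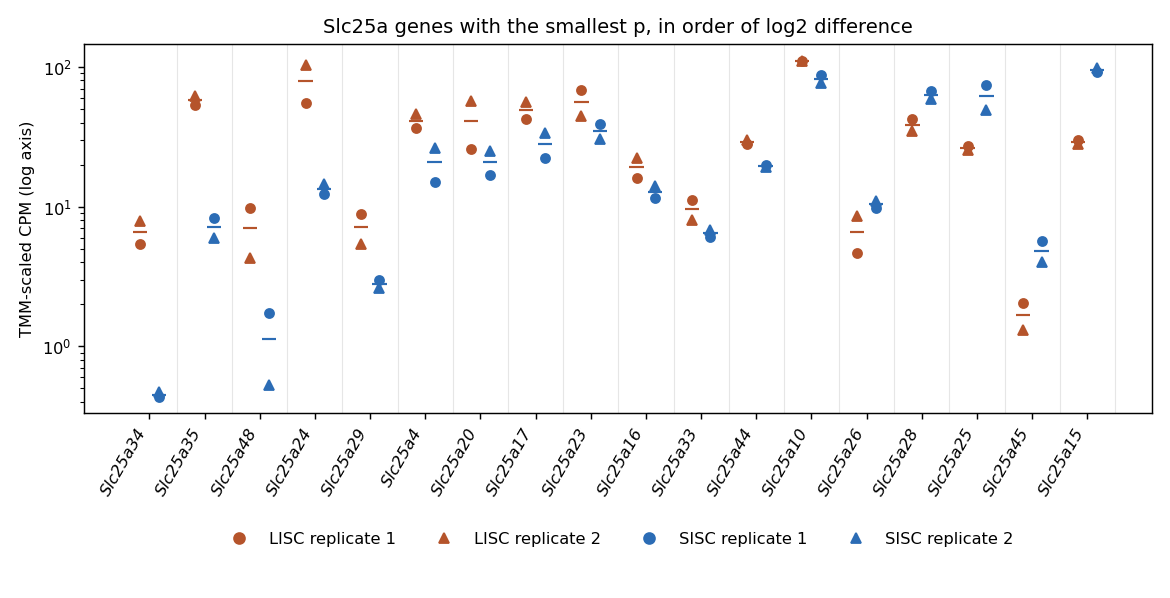
TMM-scaled CPM (log axis) in each library for the 18 Slc25a genes called by edgeR or DESeq2 or next by unadjusted p, ordered by log2 difference; LISC is left of SISC for each gene and horizontal lines are means of 2 libraries. Slc25a34, Slc25a35, Slc25a48 and Slc25a24 stand apart with LISC on top, and Slc25a15 with SISC on top.

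Among the amino acid carriers, Slc25a15 (ENSMUSG00000031482; chromosome 8, 22375551 to 22398597, minus strand) exchanges cytosolic ornithine for citrulline made in the matrix. It was read at 29.9 and 28.2 CPM in LISC and 91.5 and 97.7 CPM in SISC. Replicates lay close together in both groups and the groups did not overlap. The log2 difference was −1.70 ± 0.25 (edgeR adjusted p = 0.0494), and −1.61 and −1.79 within replicate numbers 1 and 2. The adjusted p was close to the threshold, and the call was lost when any library was left out: the log2 difference was −1.75 and −1.65 without LISC replicates 1 and 2 and −1.76 and −1.68 without SISC replicates 1 and 2 (edgeR adjusted p from 0.0777 to 0.319). It was also lost with rRNA and mitochondrially encoded genes left out (−1.69), with at least 1 CPM required in all libraries (−1.68) and with limma on log2 TPM. Slc25a2, a close relative that also carries ornithine in human, had 5 and 0 counts in LISC and 16 and 0 counts in SISC and was not tested.

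Several enzymes around this carrier were lower in LISC as well. Of 12 genes of the urea cycle and of ornithine and proline metabolism, all tested, edgeR called 2, both lower in LISC, and DESeq2 called 7, all lower. The median log2 difference was −1.56. In both LISC libraries 8 lay below SISC and 2 above, against 18.4% and 21.9% of all genes tested. Over all genes, 0.741% were called lower by edgeR and 2.31% by DESeq2. These 12 genes were chosen with earlier results of these data known. Cps1, which makes carbamoyl phosphate in the matrix, was read at 275 and 201.5 CPM in LISC and 2939 and 2350 CPM in SISC, with a log2 difference of −3.47 ± 0.48 (edgeR adjusted p = 0.0447). Nags, which makes the activator of Cps1, was read at 5.19 and 6.3246 CPM in LISC and 39.1 and 28.05 CPM in SISC, with a log2 difference of −2.54 ± 0.31 (edgeR adjusted p = 0.0354). Without LISC replicates 1 and 2 these calls were lost, at log2 differences of −3.71 and −3.25 for Cps1 and −2.405 and −2.68 for Nags. Oat, the ornithine aminotransferase, was read at 287 and 216 CPM in LISC and 1204 and 1568 CPM in SISC, and Arg2, the mitochondrial arginase, at 1.95 and 3.37 CPM in LISC and 22.4 and 13.4 CPM in SISC. They missed edgeR's threshold (adjusted p = 0.0716 and 0.0652) and passed DESeq2's (3.0e-09 and 2.39e-05), and Arg2 passed edgeR's without SISC replicate 2 (log2 difference −3.08). Ass1 and Asl, the cytosolic enzymes that turn citrulline into arginine, had log2 differences of 0.46 ± 0.28 and 0.13 ± 0.26 and passed neither test. The small-intestinal enterocyte and Paneth markers given above were higher in SISC as well, and their part in these values was not tested.

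**Figure D3:**
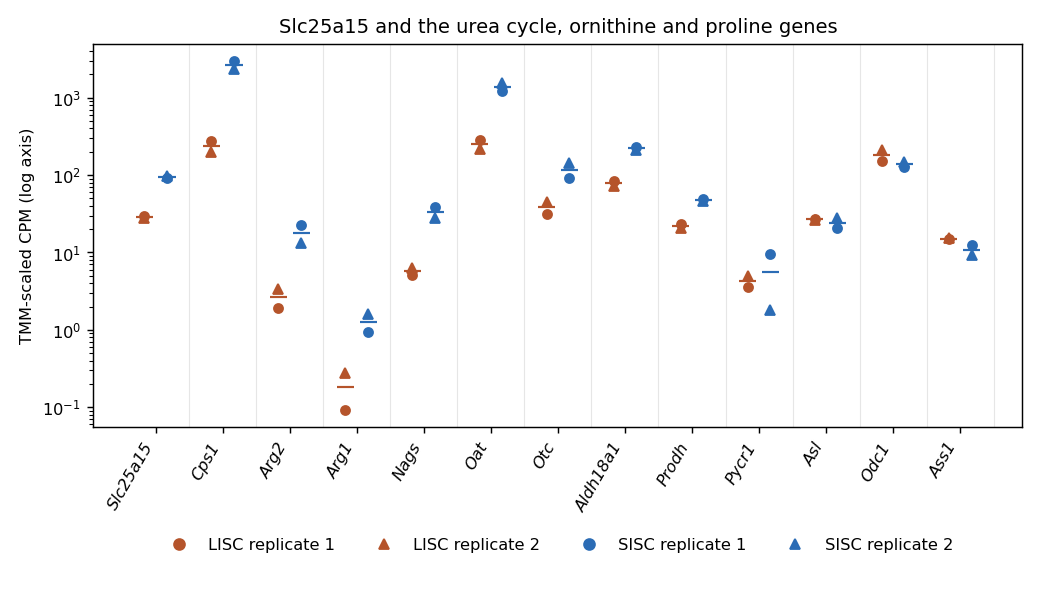
TMM-scaled CPM (log axis) in each library for Slc25a15 and the 12 genes of the urea cycle and of ornithine and proline metabolism, ordered by log2 difference, with LISC left of SISC and lines at the means of 2 libraries. Cps1 lay at 275 and 201.5 CPM in LISC and at 2939 and 2350 CPM in SISC. Ass1 lay at 14.7 and 15.2 CPM in LISC and 12.6 and 9.25 CPM in SISC. Asl lay at 26.9 and 26.7 CPM in LISC and 20.4 and 28.3 CPM in SISC.

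The other amino acid carriers passed neither test. Slc25a29, a carrier of basic amino acids, was read at 8.90 and 5.36 CPM in LISC and 2.98 and 2.62 CPM in SISC, with a log2 difference of 1.34 ± 0.46 (edgeR adjusted p = 0.295). Slc25a44, the carrier of branched-chain amino acids, was read at 28.3 and 29.8 CPM in LISC and 20.01 and 19.3 CPM in SISC, with a log2 difference of 0.56 ± 0.22 (edgeR adjusted p = 0.391). For both, the LISC libraries lay above the SISC libraries. Among 10 genes of branched-chain breakdown, 9 of them tested, edgeR called 0 and DESeq2 called only Bcat2, against 4.61% of all genes called higher in LISC by DESeq2. Bcat2, the mitochondrial branched-chain aminotransferase, was read at 61.4 and 77.9 CPM in LISC and 30.5 and 34.0 CPM in SISC (DESeq2 adjusted p = 0.0417). Slc25a12 and Slc25a13, which carry aspartate and glutamate for the malate-aspartate shuttle, differed by −0.25 ± 0.44 and 0.41 ± 0.30 on the log2 scale. Slc25a12 stood at 6.12 CPM in LISC replicate 1 and 12.9 CPM in LISC replicate 2, on either side of SISC at 10.1 and 12.7 CPM, and its sign turned to 0.17 without LISC replicate 1. None of 4 shuttle enzymes was called, and their log2 differences lay between −0.16 and 0.12. Of the glutamate carriers, Slc25a18 was at 0 counts in all libraries, and Slc25a22 was read at 26.0 and 17.5 CPM in LISC and 25.2 and 12.5 CPM in SISC, with replicate 1 higher in both groups. Its log2 difference of 0.21 ± 0.43 turned to −0.11 without LISC replicate 1 and to −0.23 without SISC replicate 2. Of 6 genes of glutamine and glutamate metabolism edgeR called 0 and DESeq2 called 3. DESeq2 called 4.61% of all genes higher and 2.31% lower in LISC. Glutamine synthetase Glul and the alanine aminotransferase Gpt2 were higher in LISC, at log2 differences of 1.63 ± 0.42 and 2.23 ± 0.50. The glutaminase Gls2 was lower, at −2.63 ± 0.82 (DESeq2 adjusted p = 0.00535, 0.00444 and 0.0224 for Glul, Gpt2 and Gls2). Slc25a38, the glycine carrier of heme synthesis, differed by −0.02 ± 0.24.

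The carriers of adenine nucleotides and phosphate made up most Slc25a transcripts in every library. Slc25a5, the main exchanger of ADP for ATP in dividing cells, had 407 and 922 TPM in LISC and 508 and 779 TPM in SISC, or 39.2% and 39.0% of the summed Slc25a TPM in LISC and 40.6% and 38.2% in SISC. Slc25a3, the phosphate carrier, followed with 20.9% and 23.4% in LISC and 21.5% and 25.8% in SISC. These shares differed little between the groups. On the CPM scale the log2 differences were 0.03 ± 0.36 for Slc25a5 and −0.11 ± 0.38 for Slc25a3, with overlapping groups for both. The signs of these small differences were not fixed: Slc25a5 was at −0.040 on the TPM scale at either pseudocount and −0.071 without LISC replicate 2, and Slc25a3 at 0.10 without LISC replicate 1 and 0.0094 without SISC replicate 2. Slc25a5 and Slc25a3 had fractional counts in some libraries, meaning that some of their reads also fitted other genes. The next 4 genes by mean TPM were Slc25a39, Slc25a1, Slc25a10 and Slc25a11. Mean TPM was at least 10 in 17 of the 47 genes, from 1 to 10 in 23 and below 1 in 7. The summed level of the whole family was 2358 and 2717 CPM in LISC and 2430 and 2484 CPM in SISC, with LISC on either side of SISC.

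**Figure D4:**
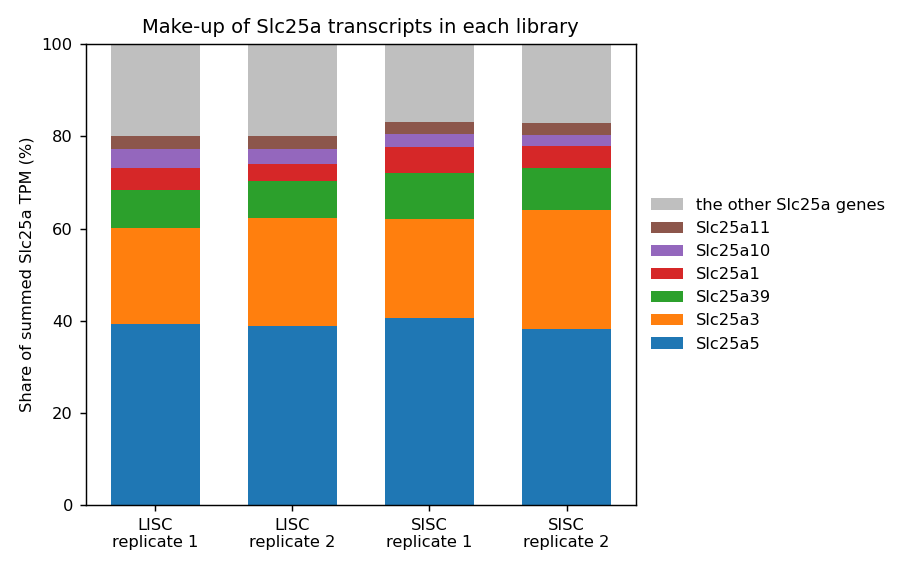
Share of the summed Slc25a TPM (y axis, percent) taken in each library by the 6 genes with the highest mean TPM and by the other Slc25a genes together. Slc25a5 and Slc25a3 took 60.2% and 62.3% in LISC and 62.1% and 63.9% in SISC.

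Other adenine nucleotide carriers differed more. Slc25a24 (ENSMUSG00000040322; chromosome 3, 109123149 to 109168457, plus strand), a calcium-regulated exchanger of ATP-Mg for phosphate, was read at 55.1 and 103 CPM in LISC and 12.2 and 14.5 CPM in SISC. Both LISC libraries were above both SISC libraries, with LISC replicate 2 the highest. The log2 difference of 2.56 ± 0.40 missed edgeR's threshold (adjusted p = 0.0555) and passed DESeq2's (adjusted p = 1.12e-06), and it passed edgeR's without LISC replicate 1 (2.94, adjusted p = 0.0125). LISC replicate 2 was also the library with the highest colonocyte markers, whose part in this value was not tested. Its relative Slc25a25 (ENSMUSG00000026819; chromosome 2, 32414487 to 32451445, minus strand) went the other way, at 27.3 and 25.5 CPM in LISC and 74.3 and 49.2 CPM in SISC, with a log2 difference of −1.22 ± 0.30 (edgeR adjusted p = 0.1501, DESeq2 adjusted p = 0.0321). The third member of this trio, Slc25a23, was read at 68.6 and 44.4 CPM in LISC and 38.9 and 30.7 CPM in SISC (log2 difference 0.70 ± 0.32, edgeR adjusted p = 0.493). Slc25a4, the ADP/ATP exchanger typical of heart and muscle, was read at 36.3 and 46.2 CPM in LISC and 15.1 and 26.4 CPM in SISC, with a log2 difference of 0.99 ± 0.35 that missed the threshold (edgeR adjusted p = 0.316). Of the muscle markers, Ckm was at 0 counts in all libraries and Acta1 was read at 3.61 and 5.12 CPM in LISC and 8.004 and 4.22 CPM in SISC.

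Within pairs of paralogs, the share of one gene in the TPM of the pair was compared between libraries, which needs no scaling of one library to another. With 2 libraries a group the smallest two-sided permutation p is 0.33, so the shares are given with no test. Slc25a24 held 63.2% and 79.2% of Slc25a24 plus Slc25a25 in LISC and 12.96% and 21.2% in SISC, so that the more abundant of the pair was a different gene in each intestine. Slc25a4 held 3.285% and 3.56% of Slc25a4 plus Slc25a5 in LISC and 1.245% and 2.24% in SISC. Slc25a28 held 77.5% and 80.45% of the mitoferrin pair in LISC and 85.6% and 85.4% in SISC, and Slc25a12 held 23.9% and 32.8% of the aspartate-glutamate pair in LISC and 38.5% and 41.1% in SISC. In these 4 pairs the groups did not overlap, but no other gene pairs were computed as a background for this. Slc25a39 held 98.3% and 98.2% of the glutathione pair in LISC and 99.2% and 98.5% in SISC, also without overlap but only −0.60 percentage points apart on average (LISC minus SISC). Slc25a33 held 37.6% and 23.7% of the pyrimidine nucleotide pair in LISC and 23.1% and 23.1% in SISC. These groups did not overlap either, but only LISC replicate 1 stood apart.

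**Figure D5:**
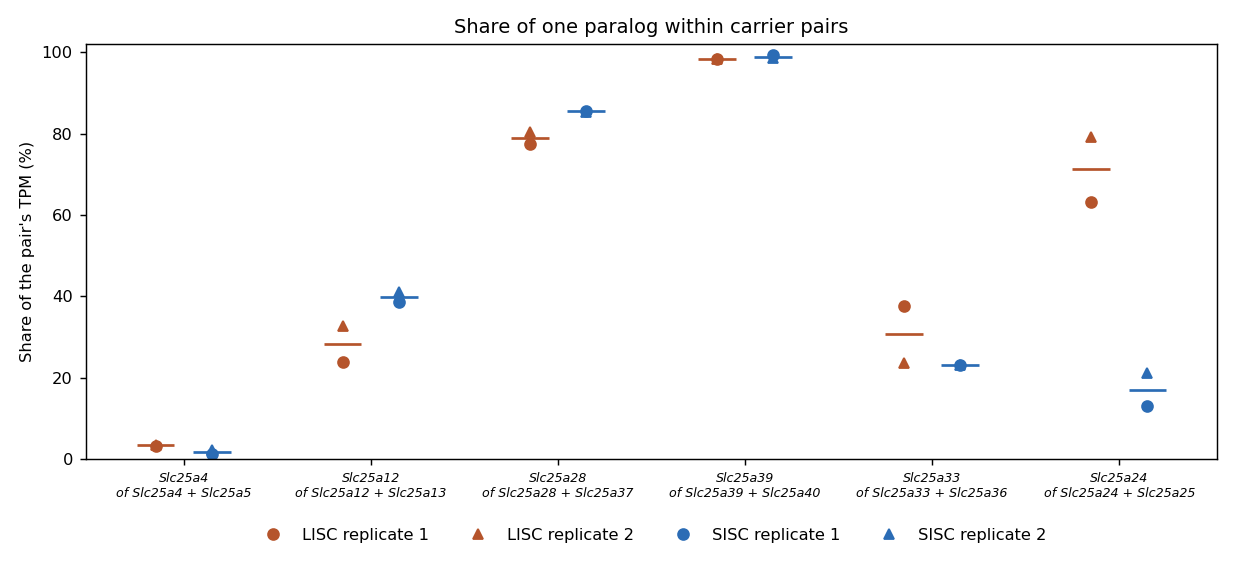
Share of the first-named gene in the summed TPM of 6 pairs of carrier paralogs (y axis, percent), per library, with LISC left of SISC and lines at the means of 2 libraries. The Slc25a24 share lay at 63.2% and 79.2% in LISC and 12.96% and 21.2% in SISC, the widest gap among these pairs.

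Carriers of di- and tricarboxylates differed little. Slc25a1, which exports citrate for lipid synthesis, was read at 106 and 103 CPM in LISC and 137 and 116 CPM in SISC, with a log2 difference of −0.27 ± 0.27. Slc25a10, the dicarboxylate carrier, was read at 111 and 110 CPM in LISC and 87.5 and 77.0 CPM in SISC, with a log2 difference of 0.42 ± 0.26, and Slc25a11, the exchanger of oxoglutarate for malate, differed by 0.18 ± 0.25. None of the 3 passed either test (edgeR adjusted p = 0.894, 0.676 and 0.957). Among 10 genes that make or use citrate and its products, by contrast, 3 were called by edgeR and by DESeq2, all higher in LISC. Over all genes tested, edgeR called 1.45% higher in LISC and DESeq2 4.61%. Idh1, the cytosolic isocitrate dehydrogenase, was read at 403 and 538 CPM in LISC and 35.7 and 44.7 CPM in SISC, with a log2 difference of 3.55 ± 0.38 (edgeR adjusted p = 0.0269). Me1, the cytosolic malic enzyme, was read at 11.3 and 10.9 CPM in LISC and 1.75 and 1.81 CPM in SISC, and Acacb, the acetyl-CoA carboxylase of the mitochondrial surface, at 44.7 and 24.0 CPM in LISC and 5.38 and 4.53 CPM in SISC (edgeR adjusted p = 0.0431 and 0.0485). Citrate synthase Cs differed by −0.00083 on the log2 scale. The call of Idh1 was lost without SISC replicate 1 (log2 difference 3.39) or 2 (3.695), that of Acacb without LISC replicate 1 (2.275) or SISC replicate 2 (2.65), and that of Me1 without any of the 4 libraries (2.60 to 2.67).

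Slc25a20, the carrier of acylcarnitines for fatty acid oxidation, was read at 25.7 and 56.6 CPM in LISC and 16.9 and 25.1 CPM in SISC. The LISC libraries lay above the SISC libraries, but LISC replicate 1 was within 1 CPM of SISC replicate 2. The log2 difference of 0.97 ± 0.46 missed the threshold (edgeR adjusted p = 0.505) and rested on LISC replicate 2, without which it was 0.30. None of 7 genes of the carnitine shuttle, 6 of them tested, was called by edgeR or DESeq2, and Cpt1a, which forms acylcarnitines at the outer membrane, differed by 0.43 ± 0.33.

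None of the 9 cofactor and nucleotide carriers was called by edgeR or DESeq2 fitted on group alone. Slc25a17, which serves peroxisomes, was read at 42.6 and 56.1 CPM in LISC and 22.3 and 33.8 CPM in SISC (log2 difference 0.81 ± 0.32, edgeR adjusted p = 0.378), and Slc25a16, linked to coenzyme A supply, at 16.1 and 22.4 CPM in LISC and 11.5 and 14.0 CPM in SISC (0.60 ± 0.29, adjusted p = 0.528). Slc25a26, which imports the methyl donor S-adenosylmethionine, was read at 4.63 and 8.52 CPM in LISC and 9.82 and 10.9 CPM in SISC (−0.64 ± 0.40, edgeR adjusted p = 0.684). In each of these 3 the groups did not overlap. Among all 9, both LISC libraries lay above SISC in 3 and below in 2, against 21.9% and 18.4% of all genes tested. Slc25a33, a pyrimidine nucleotide carrier, was read at 11.2 and 8.08 CPM in LISC and 6.11 and 6.81 CPM in SISC (0.57 ± 0.34, edgeR adjusted p = 0.654), and its relative Slc25a36 differed by −0.08 ± 0.25. The folate carrier Slc25a32, the NAD carrier Slc25a51 and the coenzyme A carrier Slc25a42 lay between −0.26 and 0.17. Slc25a42 was higher in replicate 1 than in replicate 2 of both groups, at 23.9 and 11.2 CPM in LISC and 23.1 and 12.1 CPM in SISC. None of 10 genes of mitochondrial folate and one-carbon metabolism, 9 of them tested, was called by either test.

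Of the 4 iron and glutathione carriers none was called by edgeR or DESeq2 fitted on group alone. Slc25a28, the mitoferrin of most tissues, was read at 42.4 and 34.7 CPM in LISC and 66.8 and 59.0 CPM in SISC, with no overlap and a log2 difference of −0.71 ± 0.26 (edgeR adjusted p = 0.334). Slc25a37, the mitoferrin of red cell precursors, was read at 37.9 and 30.1 CPM in LISC and 36.1 and 35.3 CPM in SISC (−0.07 ± 0.24), and it turned to 0.10 without LISC replicate 2. The 6 erythroid markers summed to 0 and 18.7 CPM in LISC and 0.728 and 14.4 CPM in SISC, nearly all from globin genes and in replicate 2 of both groups, and their part in the mitoferrin values was not tested. Slc25a39, which imports glutathione and had the third highest TPM of the family, was read at 187 and 199.5 CPM in LISC and 237 and 209.6 CPM in SISC (−0.21 ± 0.29), and Slc25a40, its relative, at 6.39 and 7.12 CPM in LISC and 3.64 and 6.22 CPM in SISC (0.45 ± 0.43). None of 16 genes of heme and iron-sulfur synthesis and iron transport, 15 of them tested, was called by edgeR or DESeq2, and their median log2 difference was −0.02. The relatives of uncoupling proteins, Slc25a14, Slc25a27 and Slc25a30, stayed below 6 TPM in every library, with log2 differences from −0.47 to 0.43 and no call.

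Of the 47 members, 7 did not pass the filter on low counts. Slc25a18, Slc25a31, the ADP/ATP exchanger of testis, Slc25a41 and Slc25a54 were at 0 counts in all libraries. Slc25a21, the oxodicarboxylate carrier, reached 0.17 TPM, Slc25a43 0.36 TPM and Slc25a2 1.03 TPM in their highest libraries. At this depth a count of 0 allows up to 0.234 CPM of the unscaled total in the shallowest library, which covers counting error only.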

How the data were processed

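Poly(A)-selected, strand-marking RNA-seq libraries of sorted stem cells, 2 LISC and 2 SISC, were analysed; groups and replicate numbers come from the titles. The submitters' processing notes name STAR 2.7.2b, RSEM 1.2.31 and GRCm38. No source used here states the annotation, strand setting or trimming. The authors deposited RSEM expected counts, where ambiguous reads are split among genes, so that 5 of the 47 members had values more than 0.001 from a whole number, and TPM, scaled by effective length. TPM includes rRNA, which lowers all other genes in replicate 1. The deposited lengths and effective lengths served only for annotation.

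Symbols and 1-based coordinates are from GENCODE vM21 (55141 of 55487 identifiers matched). Rounded counts of the whole table were fitted with edgeR 4.0.16 under R 4.3.3 (quasi-likelihood, TMM, filterByExpr with a minimum count of 10, group as the only term), with Benjamini-Hochberg adjustment over 14165 genes. Standard errors are the log2 difference divided by the square root of F. DESeq2 1.42.0, limma 3.58.1 on log2 TPM and other settings were alternatives. The fits were tested on simulated data. Members by rule were the edgeR and DESeq2 calls, the next 12 by unadjusted p at a TPM of at least 1, the 6 highest by TPM and the paralog pairs, plus up to 4 called genes per related list (14 lists, 138 genes) at a TPM of at least 1. Values of some genes are not reported here. Further genes given with values were picked with those values in view. The members and lists were chosen with earlier results of these data known. Replicates differed by more than sampling noise (chi-square over its degrees of freedom, 833 in LISC and 892 in SISC), so no library was counted as a copy. These counts included rRNA, whose share differed between the replicate numbers, so the check cannot tell whether replicates came from separate RNA or animals.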

Additional observations from a re-analysis of the deposited data

How the results depend on the processing

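Of 346 alternative values for the 29 tested Slc25a genes picked by the rule above, 307 kept their direction and their side of the threshold. The other tested members were not followed gene by gene. Members called higher and lower in LISC, 2 and 1, became 4 and 2 without a count filter and with DESeq2, 1 and 0 with at least 1 CPM in all libraries and with limma-trend on log2 TPM at a pseudocount of 1 or 0.1, 2 and 0 with rRNA and mitochondrially encoded genes left out, and 1 to 2 and 0 when a library was left out. At an unadjusted p, 6 and 4 members became 3 and 1 with limma-trend at a pseudocount of 0.1, and 2 were lower at a pseudocount of 1; with a library left out, 1 to 3 were lower. Over all genes, 206 and 105 calls became 942 and 465 with no filter, 767 and 384 with DESeq2, 63 and 31 at 1 CPM in all libraries, and 166 to 338 and 79 to 149 with a library left out (1.69% to 3.18% of genes tested). Genes of the related lists, 3 and 2, became 9 and 8 with no filter and with DESeq2, 1 and 1 with limma-trend at either pseudocount, 1 lower at 1 CPM in all libraries, and 0 to 2 and 0 to 3 with a library left out. On deposited TPM, 6 and 5 members had non-overlapping groups, higher and lower in LISC, in place of 17 and 9 (13% and 9.78% of all genes). The cause of these changes was not tested.

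Small log2 differences changed sign in 6 of the 29 genes picked by rule: Slc25a3 (−0.35 to 0.10 with a library left out), Slc25a5 (−0.040 with limma-trend at either pseudocount, −0.071 to 0.14 with a library left out), Slc25a12 (−0.89 to 0.17), Slc25a22 (−0.23 to 0.78), Slc25a36 (4.0e-05 with limma-trend at a pseudocount of 1, −0.19 to 0.034 with a library left out) and Slc25a37 (−0.25 to 0.098).

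The labels give both groups replicate numbers 1 and 2 without saying what they share. The difference between replicates 1 and 2 correlated at 0.648 across genes between LISC and SISC. With a replicate block, edgeR called 7 members higher and 3 lower in LISC, adding Slc25a24, Slc25a48, Slc25a4 (adjusted p = 0.0255), Slc25a17 (0.0285), Slc25a20 (0.0456), Slc25a25 and Slc25a28 (0.0374) to the calls; 14 were higher at an unadjusted p, 1015 and 524 genes were called in all (10.9% of those tested), and 16 and 11 in the related lists.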

Other observations

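Fitted differences in the machinery around the carriers were mostly small. Since edgeR called no gene with a fold below 3.07, a lack of calls does not show that levels were alike. Of 16 genes for the import of carrier proteins (the TIM22 complex, its small chaperones and the TOM complex), all tested, edgeR and DESeq2 called 0, and log2 differences lay between −0.42 and 0.20. None of 6 genes of outer membrane channels and pore proteins was called by either test (−0.08 to 0.52), and none of 12 genes of mitochondrial biogenesis (−0.55 to 0.80). Of carriers of the family without an Slc25 symbol, Ucp2, the uncoupling protein of many epithelia, was read at 443 and 486 CPM in LISC and 507 and 383 CPM in SISC, values on the CPM scale, which is not per length. Mtch2, an outer membrane member, was read at 116 and 153 CPM in LISC and 161 and 227 CPM in SISC (log2 difference −0.53 ± 0.34, edgeR adjusted p = 0.711), and Ucp1 was at 0 counts in all libraries.

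Of 19 genes of other inner membrane transporters, 18 of them tested, edgeR called 0 and DESeq2 called 2, both higher in LISC. Of all genes it tested, DESeq2 called 4.61% higher in LISC. Sfxn5, a sideroflexin, was read at 12.2 and 7.84 CPM in LISC and 2.26 and 1.91 CPM in SISC (log2 difference 2.27 ± 0.43, edgeR adjusted p = 0.0864, DESeq2 adjusted p = 0.00158). Mcub, a subunit that dampens the calcium uniporter, had 14 and 92 counts in LISC and 1 and 0 counts in SISC (DESeq2 adjusted p = 0.00331). At an unadjusted edgeR p below 0.05 there were 10 of 40 Slc25a genes, against 13.4% of all genes tested. Of these 10, Slc25a29, Slc25a45, Slc25a4 and Slc25a28 were called by neither edgeR nor DESeq2 fitted on group alone.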
